A study of Mus musculus and Homo sapiens with 41 samples.

Results

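The genes described here encode the proteasome and the proteins that assemble, activate and inhibit it. They were chosen by symbol alone, as protein-coding genes whose symbols start with Psma, Psmb, Psmc, Psmd, Psme, Psmf or Psmg, with no measured value in the choice. There were 50 such genes among 21911 in mouse (GENCODE vM21, mm10) and 50 among 20007 in human (GENCODE v44, hg38). Mouse Psmc3ip and human PSMC3IP, a meiotic recombination factor, and human PSME3IP1, a partner of the activator PSME3, meet the rule by name and are not proteasome subunits. No mouse gene of this annotation carries the symbol Psme3ip1, and no human gene the symbol Psme2b.

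The mark read at these genes was H2AK119ub, ubiquitylated histone H2A, mapped by CUT&Tag, where an antibody against the mark brings a transposase that cuts and tags nearby DNA. The 39 H2AK119ub libraries fall into 13 groups of 3, and 2 further libraries map BAP1, a deubiquitylase of the mark, in mouse embryonic stem cells (mESCs) of wild type (WT). The study compared cells with and without TET2, which oxidizes 5-methylcytosine, and asked in TET2-deficient cells how depletion of MBD6, a reader of RNA 5-methylcytosine, or NSUN2, an RNA cytosine methyltransferase, changes the mark. In mESCs the groups are WT and Tet2-/- (KO) cells without transfection, then WT and KO cells with a control siRNA (siNC) and KO cells with siMbd6 or siNsun2. In haematopoietic stem and progenitor cells (HSPCs) they are WT and KO cells with a control shRNA (shNC) and KO cells with shMbd6. In K-562, a human erythroleukaemia line, they are WT and TET2-/- cells with siNC and KO cells with siMBD6 or siNSUN2. The mESC and K-562 genotypes are lines obtained from other laboratories, and the sources used here do not say whether a KO line is 1 clone. The mESCs were kept with LIF and kinase inhibitors after passages that cleared feeder cells. The HSPCs were lineage-negative, c-Kit-selected marrow cells of mice 6 to 8 weeks old, electroporated with shRNA and cultured for 7 days, and the labels do not say how many mice stand behind a library. Nothing in the labels ties a replicate to its own culture or animal, so p-values measure the spread between these libraries, which may be technical.

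The proteasome degrades proteins tagged with ubiquitin. Its 20S core is a barrel of outer alpha rings and inner beta rings that hold the proteolytic sites, and its 19S cap binds ubiquitin, removes it and unfolds the substrate with a ring of ATPases. Interferon gamma replaces catalytic subunits of the core by immunoproteasome subunits and adds the activator built from Psme1 and Psme2, which alters the peptides made for antigen presentation. Most of these genes are expressed in nearly all cells. H2AK119ub is laid down by the Polycomb complex PRC1, is widespread at CpG-rich promoters and is best known from silenced developmental genes.

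Each gene was described by the bases of its window, 5 kb to each side of the annotated transcription start site (TSS), that lie in H2AK119ub peaks. The sequences printed next are 300 bases each, written 5′ to 3′ on the gene's strand, with GGGCGG (the GC box bound by SP factors), CCAAT or TGACNNNGC and their reverse complements in capitals where present. The first 5 are promoters where the results turn on a peak. Psmb4 is shown because no library covered its window, and human PSMC4 because every K-562 library covered it. The mouse promoters run from 250 bases before to 50 after the RefSeq start on GRCm38.p6 (mm10), at chr3:108256676-108256975 (Psma5, plus strand), chr7:28050043-28050342 (Psmc4, minus), chr14:55591052-55591351 (Psme2, minus), chr17:34187281-34187580 (Psmb9, minus), chr2:34870913-34871212 (Psmd5, minus) and chr3:94886909-94887208 (Psmb4, minus). The PSMC4 promoter is the same frame around the GENCODE start on hg38, chr19:39970915-39971214, plus strand.
Psma5: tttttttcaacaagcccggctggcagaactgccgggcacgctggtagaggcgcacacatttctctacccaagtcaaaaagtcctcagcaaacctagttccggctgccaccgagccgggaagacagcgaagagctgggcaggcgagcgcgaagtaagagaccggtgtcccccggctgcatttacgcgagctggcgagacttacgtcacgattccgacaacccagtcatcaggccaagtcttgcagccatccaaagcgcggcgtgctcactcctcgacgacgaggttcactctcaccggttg
Psmc4: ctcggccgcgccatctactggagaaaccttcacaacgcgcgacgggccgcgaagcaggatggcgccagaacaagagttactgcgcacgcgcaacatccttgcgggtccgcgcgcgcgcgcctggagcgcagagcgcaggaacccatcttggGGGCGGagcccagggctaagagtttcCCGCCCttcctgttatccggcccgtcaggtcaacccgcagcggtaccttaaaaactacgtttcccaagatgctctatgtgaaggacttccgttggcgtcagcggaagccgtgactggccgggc
Psme2: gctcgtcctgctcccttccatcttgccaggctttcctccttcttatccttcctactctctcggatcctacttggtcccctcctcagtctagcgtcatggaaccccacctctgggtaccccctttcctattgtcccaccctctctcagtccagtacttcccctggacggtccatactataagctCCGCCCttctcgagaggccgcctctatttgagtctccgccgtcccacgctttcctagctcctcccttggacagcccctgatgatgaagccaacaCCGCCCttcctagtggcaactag
Psmb9: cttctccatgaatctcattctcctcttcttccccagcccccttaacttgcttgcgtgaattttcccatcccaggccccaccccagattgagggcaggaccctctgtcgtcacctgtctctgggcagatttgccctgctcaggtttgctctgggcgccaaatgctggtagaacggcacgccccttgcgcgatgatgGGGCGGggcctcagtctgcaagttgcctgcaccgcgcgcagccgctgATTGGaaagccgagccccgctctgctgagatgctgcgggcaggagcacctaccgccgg
Psmd5: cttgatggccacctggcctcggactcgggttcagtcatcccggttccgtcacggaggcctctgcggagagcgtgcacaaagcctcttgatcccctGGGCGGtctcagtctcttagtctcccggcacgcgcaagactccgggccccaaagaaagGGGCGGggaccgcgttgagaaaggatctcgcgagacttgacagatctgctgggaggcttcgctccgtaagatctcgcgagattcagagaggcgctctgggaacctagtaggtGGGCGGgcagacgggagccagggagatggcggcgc
Psmb4: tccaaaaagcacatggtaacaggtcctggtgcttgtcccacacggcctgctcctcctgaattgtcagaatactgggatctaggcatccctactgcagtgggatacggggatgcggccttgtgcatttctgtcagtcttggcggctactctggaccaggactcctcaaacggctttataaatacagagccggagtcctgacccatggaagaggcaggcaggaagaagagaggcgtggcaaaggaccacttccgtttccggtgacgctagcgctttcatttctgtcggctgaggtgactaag
PSMC4: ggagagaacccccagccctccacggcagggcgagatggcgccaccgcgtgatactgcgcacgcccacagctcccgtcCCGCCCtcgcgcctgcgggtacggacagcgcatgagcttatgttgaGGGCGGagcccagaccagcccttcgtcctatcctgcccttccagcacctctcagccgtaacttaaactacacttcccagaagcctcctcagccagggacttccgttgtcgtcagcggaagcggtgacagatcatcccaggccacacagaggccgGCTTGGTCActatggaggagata

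A further sequence is the middle of a stretch near Psmb8 that every mouse library covered, at chr17:34202499-34202798 on the plus strand of mm10, with each AGGAGTGC in capitals.
Psmb8: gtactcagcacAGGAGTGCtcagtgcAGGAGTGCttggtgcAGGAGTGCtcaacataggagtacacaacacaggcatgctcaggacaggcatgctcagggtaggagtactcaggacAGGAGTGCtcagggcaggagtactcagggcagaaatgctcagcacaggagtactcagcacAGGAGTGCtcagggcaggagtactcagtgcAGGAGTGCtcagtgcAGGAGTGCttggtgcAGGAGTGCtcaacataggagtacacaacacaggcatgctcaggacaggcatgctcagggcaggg

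The libraries differ in how many peaks were called in them. The 9 libraries of WT, KO and WT siNC mESCs hold 24360 to 37392 peaks, the 9 of siRNA-treated KO mESCs 4251 to 12139, and the 12 of K-562 cells 1919 to 4575. The HSPC libraries hold 3979 to 4629 peaks in WT, 1398 to 1451 in KO shNC and 7650 to 8286 in KO shMbd6. Read depth is not given in the peak lists, so a window listed at 0 may be unmarked or too thinly sequenced. A peak list also cannot separate fewer cells with the mark from less of the mark per cell, and it does not measure expression, so the knockouts, the knockdowns and the cell types were not checked on RNA. In WT mESCs the mark covered 4 of 5 pluripotency, 4 of 5 HSPC and 3 of 5 fibroblast marker genes. In WT shNC HSPCs it covered 1 of 5 pluripotency, 0 of 5 HSPC and 0 of 5 fibroblast markers. Lymphoid markers stood at 0 of 4 in each mouse group. These counts do not check cell identity.

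In untransfected mESCs, H2AK119ub lay at most proteasome genes. A gene was counted as covered in a group when a peak overlapped its window in at least 2 of the 3 libraries. By this count 37 of 50 genes were covered in WT mESCs and 37 in KO mESCs, against 55.7% and 55.8% of all protein-coding windows. In WT siNC mESCs 36 of 50 were covered (72.0%), against 55.6% of all windows. WT and KO mESCs shared 34 of these genes, which is 91.9% of either list. Psma6, Psmd7 and Psmd11 were counted in WT alone and Psma3, Psmc5 and Psmd6 in KO alone, each covered in 2 or 3 libraries of the group named.

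**Figure D1:**
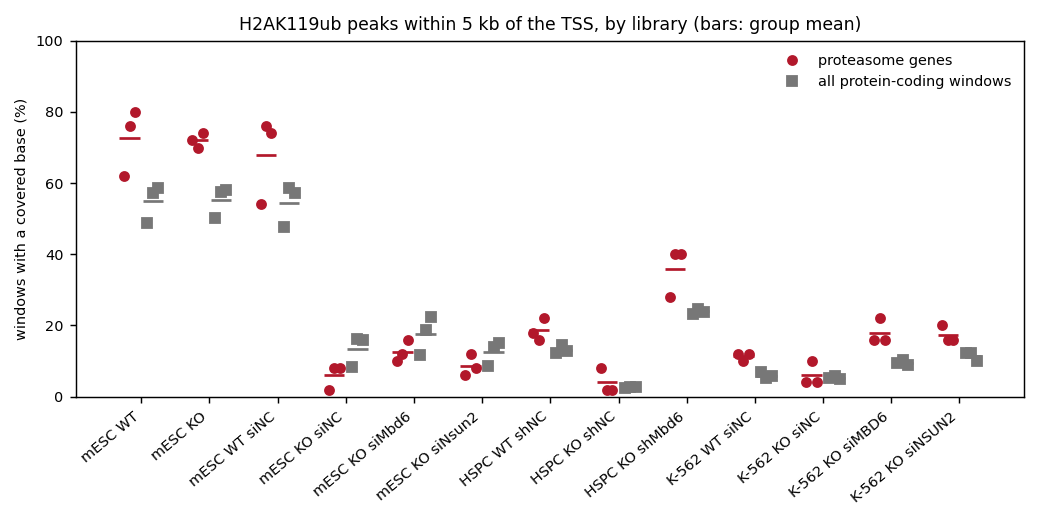
Share of windows with a covered base in each H2AK119ub library (vertical axis, percent) for the 50 proteasome genes (red circles) and all protein-coding genes (grey squares), with bars at the mean of 3 libraries. By their means the proteasome genes lie below all windows in the 3 groups of siRNA-treated KO mESCs and above them in the other 10 groups, with 27 to 40 of 50 genes covered per library in untransfected and WT siNC mESCs and 14 to 20 in HSPC KO shMbd6.

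The covered genes came from every role class. In WT mESCs the mark was at 5 of 8 alpha subunits, 5 of 7 constitutive beta subunits and 4 of 4 immunoproteasome and thymoproteasome subunits. It was at 3 of 6 ATPases, 10 of 11 non-ATPases of the cap, 5 of 7 assembly chaperones, 3 of 5 activators and at the inhibitor Psmf1. These counts are of whole windows. Psma6, Psmb1, Psmb7, Psmb8, Psmb10, Psmb11, Psmd5, Psmd9 and Psmf1 reached the count only with peaks more than 1 kb from the TSS. At Psmb8 these peaks lay over the stretch that every mouse library covered. The longest covered length was at Psme2, a subunit of the interferon-inducible activator, with 1005, 1202 and 985 bases in the 3 WT libraries. Psmb9, a catalytic immunoproteasome subunit, had 761, 666 and 991 bases, and Psmd13, a subunit of the cap's lid, 739, 902 and 787. These 3 had the highest mean covered lengths of the 50 genes in WT mESCs, and their values in KO mESCs overlap those in WT. At the other end, Psmb5, the chymotrypsin-like catalytic subunit, had 430 bases in 1 WT library and none in the other 2, and Psma7, an alpha subunit, had none. The covering peaks were narrow, with medians of 404 bases in WT, 450 in KO and 427 in WT siNC mESCs, against 406, 446 and 427 for all windows.

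No mouse library covered the windows of Psmb4, a structural beta subunit, Psmc2, an ATPase, Psmg2, an assembly chaperone, or Psme2b, a close copy of Psme2 with which it may share reads. In all, 18 of 50 mouse windows hold the TSS of another protein-coding gene, among them Psmb9 (Tap1, 211 bases away), Psme2 (Rnf31, 595 bases), Psma4 (AY074887, 208 bases) and Psmd13 (Sirt3, 341 bases). A peak there cannot be given to one gene rather than the other.

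**Figure D2:**
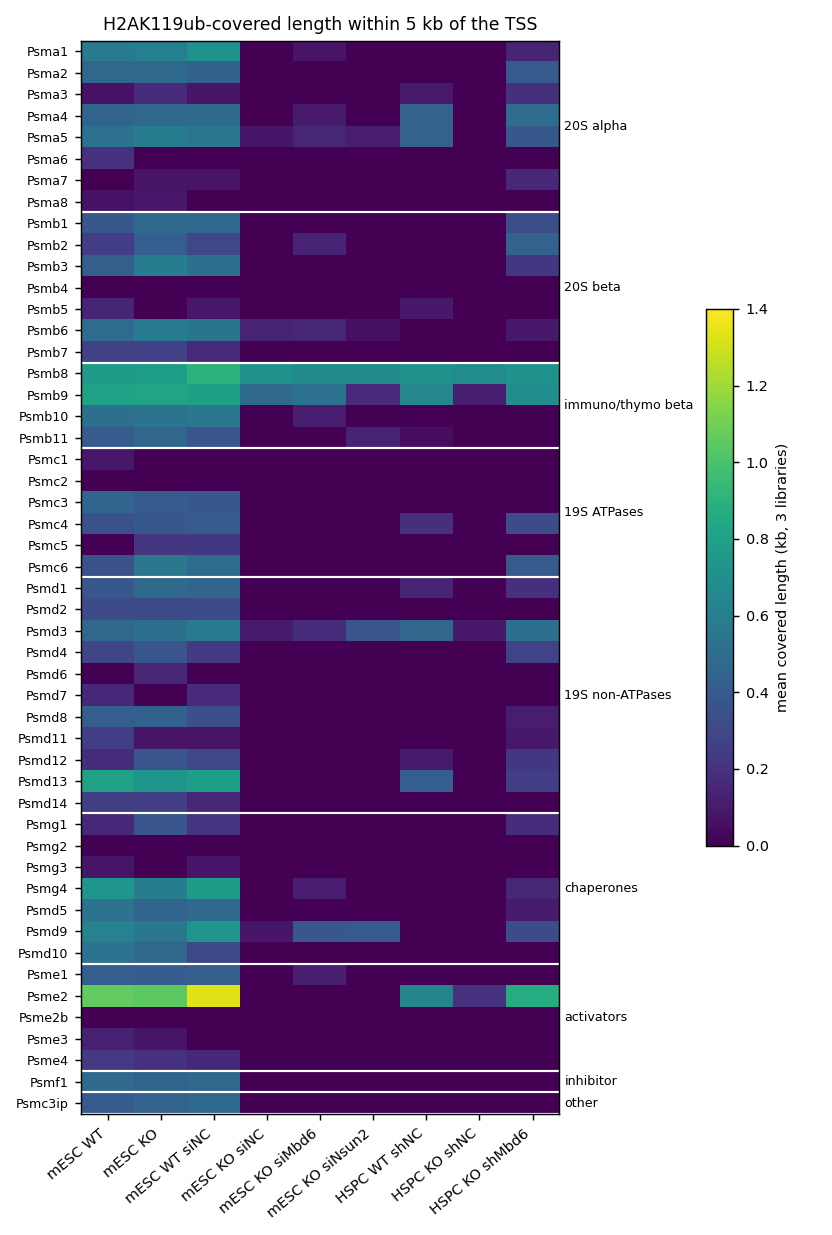
Mean H2AK119ub-covered length (colour, kb, 3 libraries per group) within 5 kb of the TSS of the 50 mouse genes, ordered by role class, in the 9 mouse groups. Psme2 reaches 1.33 kb in WT siNC mESCs, Psmb8 keeps a covered stretch in every column, and the columns of siRNA-treated KO mESCs and of HSPC KO shNC are near 0 for most genes.

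In untransfected and WT siNC mESCs most of the covered bases lay near the start sites. Of the covered bases of these genes in WT mESCs, 73.5% lay within 1 kb of the TSS, against 75.5% for all windows, and the 250 bases after the TSS were the most covered, at 38.7%. In K-562 WT siNC cells all of the covered bases lay within 1 kb. The share was lower in mESC KO siNC (41.6%, all windows 63.9%), KO siMbd6 (51.8%, 67.6%) and KO siNsun2 (34.2%, 61.3%). It was also lower in HSPC KO shNC (38.0%, all windows 72.8%). In WT mESCs 28 of the 37 covered genes were counted with a peak within 1 kb and 9 only further out. For some of those 9 the RefSeq start differs from the GENCODE TSS. The RefSeq start of Psmd5, an ATPase assembly chaperone, is 4006 bases downstream of the GENCODE TSS, and its peaks ran from 3593 to 4137 bases downstream. For Psmf1 the RefSeq start is 2876 bases downstream, and its peaks ran from 2746 to 3367 bases downstream in the 3 KO libraries. In WT mESCs replicates 1 and 2 had a peak between 2729 and 3341 bases downstream, and replicates 2 and 3 had one more than 4 kb upstream, the only one in replicate 3. Of the 42 genes with a RefSeq promoter, 32 had starts within 100 bases of GENCODE and 4 differed by more than 1000, the others being Psmb11 (3877 bases) and Psmd9 (58777 bases). The GENCODE window of Psmd9, another assembly chaperone, therefore does not contain its RefSeq start. With RefSeq starts 32 of these 42 genes were covered in WT mESCs, compared with 31 with GENCODE starts.

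**Figure D3:**
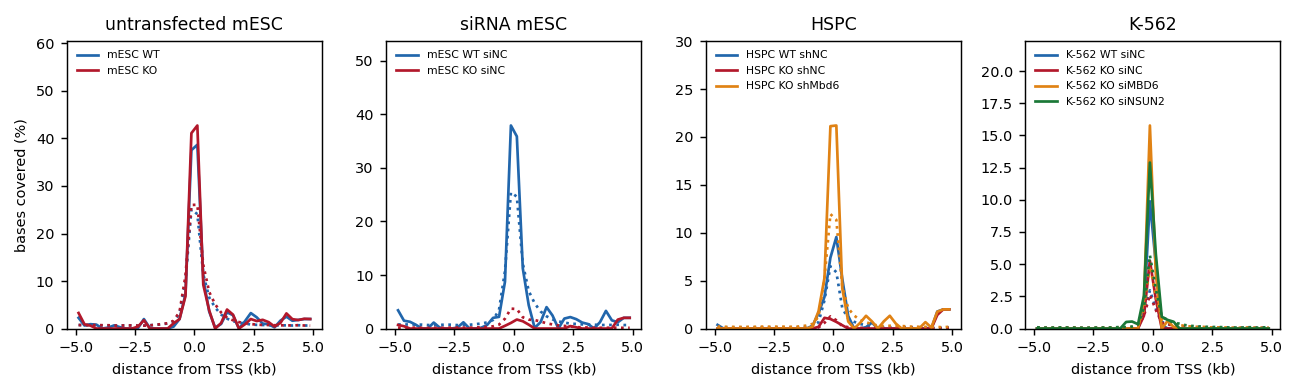
Percent of bases covered by H2AK119ub peaks in 250-base bins (vertical axis, scale differs by panel) by distance from the TSS in kb, oriented by strand, for the proteasome genes (solid) and all protein-coding windows (dotted), means of 3 libraries. The proteasome genes peak at 38.7% in WT mESCs and 15.8% in K-562 KO siMBD6, and the small rise near 5 kb in the mouse panels is the stretch downstream of Psmb8.

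Loss of Tet2 without transfection changed no proteasome gene past the threshold. Covered lengths were compared with limma over every window covered in at least 3 libraries of the experiment, with p-values adjusted after Benjamini and Hochberg over all windows tested and calls made under 0.05. Of the 36 genes tested 0 were called and 1 had an unadjusted p under 0.05, while 3 of all 12820 windows were called (0.0234%) and 710 had an unadjusted p under 0.05. The median difference, KO minus WT, was 0.013 kb for these genes and 0.03 kb for all windows. Psmb2, a structural beta subunit, had 205, 273 and 301 bases in WT and 403, 385 and 467 in KO. These groups do not overlap, and the difference of 0.159 ± 0.065 kb (SE) had an adjusted p of 0.902. Psmg1, a core assembly chaperone, had 0, 258 and 210 bases in WT and 307, 449 and 361 in KO (difference 0.216 ± 0.092 kb, adjusted p = 0.902), and Psmd12, a lid subunit, differed by 0.185 ± 0.098 kb (adjusted p = 0.957). The largest statistics in the other direction belonged to Psmd11 (-0.184 ± 0.09 kb, adjusted p = 0.933), Psmd5 (-0.075 ± 0.059 kb) and Psmg4 (-0.145 ± 0.116 kb), the last 2 with an adjusted p of 0.957.

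Between siRNA-treated cells the picture was different. In KO siNC mESCs only Psmb8 and Psmb9 of the 50 genes were covered, against 36 in WT siNC, while the share of all windows was 11.97% against 55.6%. Summed over the 50 genes, covered length was 12.8 to 20.2 kb in the WT siNC libraries and 0.665 to 2.41 kb in those of KO siNC. Of 27 genes tested, 24 fell and none rose, where 71.9% of all tested windows fell. The median difference was -0.47 kb for these genes and -0.418 kb for all tested windows. Of these 27, 14 were covered in WT siNC libraries alone and so passed the filter only through that group. They are Psma2, Psmb1, Psmb3, Psmc3, Psmc4, Psmc6, Psmc3ip, Psmd1, Psmd5, Psmd8, Psmd12, Psmd13, Psme2 and Psmf1. A group listed at 0 throughout adds no spread to the model, so the p of such a window can be too small. The KO siNC libraries hold 4251 to 9350 peaks and those of WT siNC 24360 to 37392, and when every library was scaled to equal covered length 16 of the 24 were still called lower, where 35.8% of all windows were. Of the other 8, Psma4, Psma5, Psmb6, Psmb10, Psmd3, Psmd9 and Psme1 kept the sign without the call and Psmb8 changed sign. Without WT siNC replicate 1, 2 or 3 the count was 11, 8 and 8, since only 13, 11 and 11 genes then passed the filter.

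The largest fall was at the interferon-inducible activator. Psme2 had 1247, 1687 and 1066 covered bases in WT siNC mESCs and 0 in each KO siNC library, a difference of -1.333 ± 0.123 kb (SE, adjusted p = 9.34e-06). Its partner Psme1 had 437, 440 and 394 bases against 0 in each (adjusted p = 0.00121). The groups do not overlap at either gene. The larger and unrelated activator Psme4 had 0, 263 and 217 bases in WT siNC and none in KO siNC, too few covered libraries for a test. The inhibitor Psmf1 had 245, 683 and 471 bases against 0 in each and fell by 0.466 kb.

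Among core subunits the alpha subunit Psma1 had 434, 694 and 1013 bases in WT siNC and 0 in each KO siNC library, a fall of 0.714 kb (adjusted p = 0.000612). Psma4, another alpha subunit, fell by 0.486 kb (adjusted p = 0.000828) and the structural beta subunits Psmb3 and Psmb1 by 0.516 kb and 0.473 kb (adjusted p = 7.17e-07 and 1.66e-05), all from covered libraries in WT siNC to 0 in every KO siNC library. By the count of covered genes, alpha subunits went from 4 of 8 to 0 and constitutive beta subunits from 5 of 7 to 0. Psma5 was covered in 1 KO siNC library (235 bases) against 458, 599 and 589 bases in WT siNC, and fell as well (adjusted p = 0.0113). The catalytic subunit Psmb5 was covered in 1 of 3 WT siNC libraries, by 274 bases, and Psma7 in 1, by 222 bases, so neither was tested.

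In the 19S cap Psmd13 had 748, 807 and 818 bases in WT siNC and 0 in each KO siNC library (difference -0.791 ± 0.027 kb, adjusted p = 3.77e-08). It was covered in WT siNC alone, so this p, the smallest of the set, can be too small. The ATPase Psmc6 had 215, 625 and 631 bases against 0 in each (adjusted p = 0.00109). Its ring neighbour Psmc4 had 276, 416 and 491 bases against 0 in each (adjusted p = 5.23e-05). The ATPases went from 4 of 6 covered genes to 0 and the non-ATPases from 9 of 11 to 0. Psmd4, a ubiquitin receptor of the cap, had 0, 368 and 347 bases in WT siNC and Psmd14, its deubiquitylase, 0, 256 and 227, and both had 0 in every KO siNC library but were covered in too few libraries to be tested.

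The assembly chaperones went from 5 of 7 to 0. Psmg4, which helps build the alpha ring, had 853, 663 and 787 bases in WT siNC and 0 in each KO siNC library, a fall of 0.768 kb (adjusted p = 2.91e-05). Psmd5 fell by 0.476 kb (adjusted p = 1.19e-06). Psmd9 had 624, 945 and 624 bases against 0, 261 and 0, a difference of -0.644 kb (adjusted p = 0.000828) that was not called once libraries were scaled (-0.202 kb, adjusted p = 0.502). At its RefSeq start, which lies outside that window, 288, 269 and 252 bases within 1 kb were covered in WT siNC and 0 in each KO siNC library. Psmc3ip, no proteasome subunit, had 522, 441 and 452 bases against 0 in each (adjusted p = 6.17e-07). Psmg1 was covered by 0, 339 and 308 bases in WT siNC and 0 in KO siNC and was not tested.

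Both genes that stayed covered in KO siNC mESCs encode immunoproteasome subunits. Psmb10, the third interferon-inducible catalytic subunit, fell like the others, from 524, 565 and 577 bases to 0 in each library (difference -0.555 ± 0.073 kb, adjusted p = 0.000101), a call not kept under scaling (-0.256 kb, adjusted p = 0.101). Psmb9 had 714, 754 and 924 bases in WT siNC and 0, 528 and 928 in KO siNC. These overlap, and the difference of -0.312 ± 0.246 kb was not called (adjusted p = 0.265). Psmb8 had 861, 882 and 966 bases in WT siNC and 665, 710 and 760 in KO siNC, a fall of 0.191 kb (adjusted p = 0.00208) in which the groups do not overlap. Over the whole window its direction depended on the setting. With equal covered length the difference was 1.073 kb (adjusted p = 0.0744) and with peaks of -log10 q of at least 5 it was 0.712 kb (adjusted p = 5.39e-09). Within 2 kb of the TSS alone, Psmb8 was still called lower.

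Psmb8 was covered in all 27 mouse libraries, as were 107 of all 21911 windows (0.488%). What covered it was not at its promoter. In each library a peak 910 to 1287 bases wide lay more than 4.2 kb downstream of the TSS, and the stretch common to all libraries, chr17:34202212-34203084 of mm10, starts 758 bases past the annotated end of Psmb8 and ends 443 bases before the TSS of Tap2, a peptide transporter of antigen presentation. This stretch of 873 bases is a tandem repeat. The word AGGAGTGC, capitalized in the sequence shown above, occurs 23 times in it, 98.1% of its bases lie in words of 8 letters seen at least 3 times, and shifting the sequence by 30 bases matches 78.3% of it, where the median promoter has 0.0% of bases in such words. The observed over expected CpG ratio is 0.0152. The fold enrichment of the peak over the background that the peak caller estimated was 2.91 to 3.33 in untransfected and WT siNC mESCs, 3.4 to 3.9 in siRNA-treated KO mESCs and 3.73 to 4.78 in HSPCs. A second peak, over the TSS itself, was listed in WT mESC replicate 3, KO mESC replicates 1 and 2 and the 3 WT siNC libraries, and in no KO siRNA or HSPC library. Counted within 2 kb of the TSS, which leaves out the repeat, 1 gene was covered in KO siNC mESCs and 0 in HSPC KO shNC.

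Knockdown of Mbd6 or Nsun2 in KO mESCs moved no proteasome gene past the threshold. With siMbd6, 4 of 50 genes were covered (Psmb8, Psmb9, Psmd3 and Psmd9), against 16.25% of all windows, and with siNsun2 3 were (Psmb8, Psmd3 and Psmd9), against 10.97%. Of 27 genes tested 0 were called in either comparison by limma, where 0.177% and 0.0186% of all windows were called. At an unadjusted p under 0.05 there were 1 and 2 genes, against 460 and 267 of all 10756 windows. Both comparisons use the same 3 KO siNC libraries as the comparison of genotypes. Psmd9 had 0, 261 and 0 bases with siNC, 360, 288 and 490 with siMbd6 and 333, 571 and 278 with siNsun2. Neither knockdown group overlaps siNC at Psmd9, with differences of 0.292 and 0.307 kb (both ± 0.117 kb, adjusted p = 1.0). Around the RefSeq start of Psmd9, which lies outside that window, no library of these KO groups had a covered base. Psmd3, a lid subunit, had 0, 0 and 307 bases with siNC, 0, 252 and 280 with siMbd6 and 342, 500 and 289 with siNsun2 (difference 0.275 ± 0.109 kb for siNsun2, adjusted p = 1.0). Psmb9 went the other way with siNsun2, at 0, 515 and 0 bases (-0.314 ± 0.246 kb, adjusted p = 1.0), and with siMbd6 it had 386, 891 and 304. The remaining genes named by the largest statistics, Psmb10, Psme1, Psmb6, Psmb8 and Psmb11, differed by 0.043 to 0.141 kb in size, also with an adjusted p of 1.0.

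The Tet2 difference in siNC cells and that in untransfected cells were compared directly. For 25 of 38 genes tested the change was lower in siNC mESCs (interaction term in limma), where 45.0% of all windows were, and for none was it higher. The term was -1.315 ± 0.162 kb at Psme2 (adjusted p = 6.08e-05), -0.748 ± 0.169 kb at Psma1 (0.00293), -0.713 ± 0.09 kb at Psmd13 (7.07e-05), -0.702 ± 0.184 kb at Psmc6 (0.00719) and -0.682 ± 0.113 kb at Psmb3 (0.000403). Psme2, Psmd13, Psmc6 and Psmb3 had no covered base in any siRNA-treated KO library. Those groups added no spread at these genes, so their p can be too small. All 25 kept their sign under scaling to equal covered length and 12 their call, where 16.4% of all windows were called lower. Transfection and the making of the libraries differ between the experiments together and cannot be told apart.

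In HSPCs the mark lay at fewer proteasome genes, and fewer still in KO than in WT cells. In WT shNC cells 8 of 50 genes were covered (Psma4, Psma5, Psmb8, Psmb9, Psmc4, Psmd3, Psmd13 and Psme2), against 11.95% of all windows, and all 8 are among the 36 of WT siNC mESCs (22.2% of those). In KO shNC cells Psmb8 alone was covered, through the repeat, against 2.07% of all windows. Summed covered length over the 50 genes was 3.91 to 5.03 kb in WT and 0.65 to 1.97 kb in KO libraries. Of 13 genes tested, 5 fell and none rose, where 22.7% of all windows fell. With libraries scaled to equal covered length 3 of the 5 were called lower and Psmb8 higher (1.414 kb, adjusted p = 0.000112), and over all windows 760 were lower (17.9%) and 194 higher, against 964 and 1 unscaled. The KO shNC libraries also hold 205 to 231 peaks on the Drosophila spike-in genome, against 48 to 56 in WT shNC, and the part of this in the result was not tested.

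Psma5 had 356, 504 and 459 covered bases in WT HSPCs and 0 in each KO shNC library, a difference of -0.44 ± 0.061 kb (adjusted p = 0.00177). Psma4 had 394, 389 and 545 bases against 0 in each (difference -0.443 ± 0.065 kb, adjusted p = 0.00207). Both alpha subunits were still called after scaling. Psmb9 had 649, 686 and 603 bases against 354, 0 and 0, a fall of 0.528 kb (adjusted p = 0.00442) that scaling reduced to 0.298 kb (adjusted p = 0.471). Psmd13 had 487, 309 and 453 bases against 0 in each (difference -0.416 ± 0.108 kb, adjusted p = 0.0234) and Psmd3 370, 346 and 670 against 293, 0 and 0 (difference -0.364 ± 0.112 kb, adjusted p = 0.0495). The groups do not overlap at any of these 5 genes, but the share of all windows without overlap was not computed. At Psma5, Psma4 and Psmd13 the KO shNC group had no covered base and added no spread, so their p can be too small. Psmd13 was no longer called without WT replicate 1 or 3 or any KO library (adjusted p 0.0547 to 0.0667), with differences of -0.416 to -0.381 kb. Psmd3 was not called without WT replicate 3 (-0.26 kb, adjusted p = 0.0999) or KO replicate 2 or 3 (-0.316 kb, adjusted p = 0.161 and 0.162). Without KO replicate 2 or 3 the count fell to 3. Psme2 had 830, 671 and 414 bases in WT and 601, 0 and 0 in KO, which overlap, and Psmc4 289, 287 and 0 against 0 in each (difference -0.192 ± 0.081 kb, adjusted p = 0.12).

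**Figure D4:**
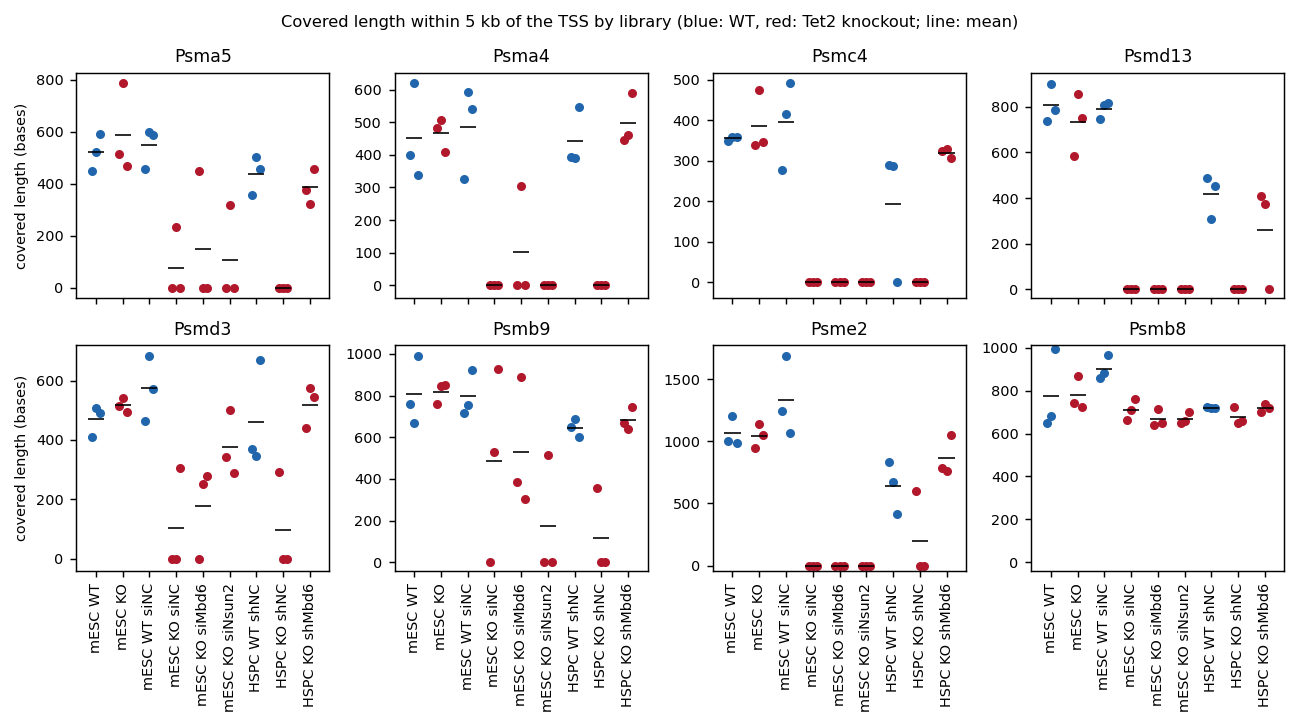
Covered bases within 5 kb of the TSS (vertical axis, scale differs by panel) in each of the 27 mouse H2AK119ub libraries for 8 genes, by group, with WT in blue, Tet2 KO in red and a line at the mean of 3 libraries. Psmd13 and Psme2 drop to 0 in KO siNC mESCs, HSPC KO shMbd6 lies above KO shNC at Psma5, Psma4, Psmc4, Psmd3, Psmb9 and Psme2, and Psmb8 stays between 639 and 994 bases.

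Knockdown of Mbd6 in KO HSPCs went the other way. With shMbd6, 19 of 50 genes were covered, against 23.02% of all windows, and they include all 8 of WT shNC (42.1% of the 19). Of the 19, 18 are also covered in WT siNC mESCs, the remaining one being Psma3. The covered genes were 4 of 8 alpha subunits, 3 of 7 constitutive beta subunits, 2 of 4 immunoproteasome and thymoproteasome subunits, 2 of 6 ATPases, 5 of 11 non-ATPases, 2 of 7 assembly chaperones and 1 of 5 activators, while Psmf1 and Psmc3ip were at 0. The immunoproteasome subunits counted include Psmb8 through the repeat, and Psmb1 was counted only through peaks more than 1 kb from its TSS. The chaperones counted include Psmd9 by its GENCODE window, and no HSPC library had a covered base around its RefSeq start. Summed covered length was 6.4 to 9.35 kb. Of 13 genes tested 8 rose and none fell, where 72.0% of all windows rose, and the median difference was 0.386 kb against 0.404 kb for all windows. Of those 13, Psmb2 and Psma2 were covered in this group alone, so they passed the filter only through it and their p can be too small. Psma4, Psma5 and Psmc4 had no covered base in any KO shNC library. That group added no spread at them, so their p can be too small as well. After scaling to equal covered length 4 of the 8 were called higher and Psmb8 lower (-1.771 kb, adjusted p = 2.77e-05), and over all windows 1183 were higher (27.9%) and 204 lower, against 3055 and 4 unscaled.

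The genes that rose span the core and the cap. Psma4 had 445, 462 and 588 bases with shMbd6 and 0 in each KO shNC library (difference 0.498 ± 0.065 kb, adjusted p = 0.000475), and Psma5 had 378, 322 and 459 against 0 in each (adjusted p = 0.00101). At both, the shMbd6 libraries overlap those of WT shNC. Psmb2 had 495, 403 and 415 bases (adjusted p = 0.000329) and Psma2, an alpha subunit, 334, 511 and 348 (adjusted p = 0.000846), while all libraries of WT and KO shNC were at 0 at these 2 genes. Psma2, Psma4, Psma5 and Psmb2 are the 4 called under scaling. Psmc4 had 323, 329 and 307 bases against 0 in each and Psmb9 666, 641 and 746 against 354, 0 and 0, and both calls (adjusted p = 0.00789 and 0.00148) were lost under scaling (0.119 and 0.992). Psmd3 with 440, 574 and 543 bases (0.421 kb higher, adjusted p = 0.0099) and Psme2 with 786, 760 and 1050 (0.665 kb higher, adjusted p = 0.0106) changed sign under scaling, to -0.026 and -0.164 kb. The comparison with KO shNC shares those 3 libraries with the comparison of genotypes. The shMbd6 libraries hold 85 to 95 Drosophila peaks, and the part of this was not tested.

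The change with Mbd6 knockdown was compared between HSPCs and mESCs. It was higher in HSPCs at 3 of 30 genes tested, Psma2 (0.398 ± 0.058 kb, adjusted p = 0.000343), Psma4 (0.397 ± 0.109 kb, 0.03) and Psmc4 (0.32 ± 0.088 kb, 0.0299), where 9.61% of all windows were called higher. Psma2 and Psmc4 were covered in no library of siRNA-treated KO mESCs, so their term is the HSPC difference alone. Groups without a covered base add no spread to the model, so the p of both can be too small. Whether the response to the knockdown differs between the cell types cannot be read from these 2 genes. Psma4 and Psmc4 each lost the call in 9 of the 12 fits that leave out 1 library (adjusted p 0.0511 to 0.079), with differences of 0.347 to 0.397 kb and 0.315 to 0.32 kb in those fits. The count was 1 without replicate 1, 2 or 3 of mESC KO siNC or replicate 2 or 3 of HSPC KO shNC, and 7 without HSPC KO shMbd6 replicate 1.

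In K-562 cells few proteasome genes carried the mark. In WT siNC cells 6 of 50 were covered (PSMA5, PSMC4, PSMD5, PSMD10, PSMG1 and PSME3IP1), against 4.89% of all windows. KO siNC cells had 3 (PSMC4, PSMG1 and PSME3IP1), against 4.25%, and KO cells with siMBD6 and siNSUN2 had 8 each, against 8.34% and 10.3%. No library covered 33 of the 50 genes, while 75.6% of all windows were covered in none. PSMC4, an ATPase of the cap, was the one gene covered in all 12 libraries, as were 277 of all windows (1.39%). It had 410, 350 and 359 bases in WT siNC, 446, 396 and 335 in KO siNC, 379, 446 and 355 with siMBD6 and 386, 547 and 335 with siNSUN2, and all 4 groups overlap. PSMG1, an assembly chaperone, had 287, 547 and 464 bases in WT siNC and was covered in 2 of 3 libraries of each KO group. PSME3IP1 had 253 to 375 bases in the 11 libraries that covered it, and its TSS lies 21 bases from that of RSPRY1. PSMB8 and PSMB9 start 543 bases apart and share 1 peak of 266 bases, in siMBD6 replicate 2.

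**Figure D5:**
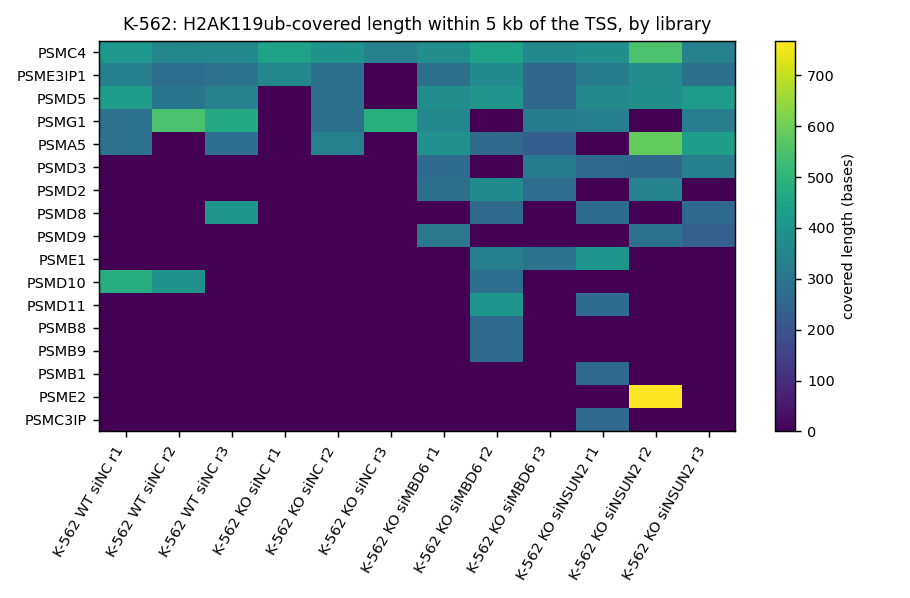
Covered bases within 5 kb of the TSS (colour) in each K-562 library (columns, r1 to r3 being replicates) for the 17 human genes covered in at least 1 library, ordered by the number of libraries that cover them. PSMC4 is covered in all 12 columns, PSME3IP1 in 11 and PSMD5 in 10.

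No proteasome gene was called in any K-562 comparison. For TET2 loss 0 of 11 genes tested were called by limma and 2 had an unadjusted p under 0.05, where 0.122% of all windows were called and 159 of 2457 had an unadjusted p under 0.05. PSMD5, an assembly chaperone of the ATPase ring, had 424, 298 and 335 bases in WT siNC and 0, 284 and 0 in KO siNC. The groups do not overlap, and the difference of -0.258 ± 0.091 kb had an adjusted p of 0.557. PSMD10, the chaperone also known as gankyrin, had 478, 392 and 0 bases against 0 in each (-0.29 ± 0.117 kb, adjusted p = 0.707). PSMG1 differed by -0.177 ± 0.141 kb and PSMC4 by 0.019 ± 0.08 kb.

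Of the same 11 genes 0 were called with siMBD6 and 0 with siNSUN2, where 0.0% of all windows were called in either, and 3 and 2 had an unadjusted p under 0.05 (264 and 362 of all windows). PSMD5 had 376, 400 and 253 bases with siMBD6 (0.248 ± 0.091 kb over KO siNC, adjusted p = 0.328) and 361, 381 and 422 with siNSUN2 (0.293 ± 0.091 kb, adjusted p = 0.142). The siNSUN2 values lie above all of KO siNC, and those of siMBD6 overlap them. PSMD3 was covered in no WT or KO siNC library, and had 269, 0 and 317 bases with siMBD6 (adjusted p = 0.444) and 261, 257 and 327 with siNSUN2 (0.282 ± 0.087 kb, adjusted p = 0.139). PSMD2, a scaffold subunit of the cap that binds ubiquitin-like domains, had 282, 372 and 275 bases with siMBD6 (0.31 ± 0.093 kb, adjusted p = 0.189), 0, 340 and 0 with siNSUN2 and 0 elsewhere. With only the 2 groups compared in the model, PSMD2 was called with siMBD6 (adjusted p = 0.0246) and PSMD3 with siNSUN2 (adjusted p = 0.0183), where 8.81% and 11.2% of all windows were called higher. Both genes had 0 bases in every KO siNC library, so they passed that filter only through the knockdown group and the group at 0 added no spread. PSMD9 had 0, 287 and 236 bases with siNSUN2 (adjusted p = 0.351), and PSMG1, the gene lower in both knockdowns, differed by -0.03 and -0.038 kb (adjusted p = 0.98 and 0.917). All 3 comparisons use the same KO siNC libraries, and the KO siNC libraries hold 2064 to 2351 peaks against 3035 to 3767 with siMBD6.

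Few genes were marked in every cell type. PSMA5 and PSMC4 were covered in WT control cells of all 3, namely WT siNC mESCs, WT shNC HSPCs and WT siNC K-562 cells, and 5 of the 6 genes of K-562 WT siNC were covered in WT siNC mESCs. HSPC WT and K-562 WT shared 2 genes, 25.0% of the former and 33.3% of the latter. The levels were set across cell types from separate experiments and species and were not tested. The catalytic subunits PSMB5 and PSMB7 and the alpha subunit PSMA7 were covered in 0 of the 12 K-562 libraries, and Psmb10, Psmd14, Psme1, Psme4, Psmf1 and Psmc3ip in 0 of the 9 HSPC libraries.

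The promoters of these genes hold the letters of several known motifs. Promoters of 42 of the 50 mouse genes were found in the RefSeq table and were searched on both strands, beside 16521 promoters in all. GGGCGG, the GC box of SP factors, was in 23 (54.8%, all promoters 48.2%), CCAAT, the NF-Y box, in 15 (35.7%, 38.8%) and CCGGAAG, an ETS site, in 14 (33.3%, 12.3%). TGACNNNGC, the antioxidant response element read by NFE2L1 and NFE2L2, the regulators of proteasome genes, was in 6 (14.3%, 13.3%), Psmb5, Psmb6, Psmc6, Psmd9, Psmd12 and Psme4. CGCATGCG, the site of nuclear respiratory factor 1, was in Psma2 and Psmg1 (4.76%, 2.66%). Matches of different motifs may share bases, and a match describes the letters of the window only. GGGCGG stood in 20 of the 30 promoters covered in WT siNC mESCs (66.7%) and 3 of the 12 not covered (25.0%), and over all promoters the shares were 64.0% and 27.5%. The median observed over expected CpG ratio was 0.758 in the covered and 0.746 in the other proteasome promoters, against 0.732 and 0.256 over all promoters. In the sequences above, Psmd5 has 3 GC boxes and Psmc4 and Psme2 have 2 each, and Psma5 and the uncovered Psmb4 have none of the capitalized motifs.

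A list of 28 other genes of the ubiquitin and proteasome pathway, without the symbol stem, was read in the same fits. It holds ubiquitin genes, the E1 enzymes, shuttling receptors, Vcp with its cofactors, Adrm1 and Pomp, and the regulators Nfe2l1 and Nfe2l2. In siNC mESCs 13 of 15 tested fell and none rose, where 71.9% of all windows fell, and under scaling 12 of the 13 kept their sign and 10 their call. In HSPCs 3 of 9 fell with loss of Tet2, where 22.7% of all windows fell, namely Nfe2l1 (-0.561 ± 0.146 kb, adjusted p = 0.0234), Nfe2l2 (-0.522 ± 0.146 kb, adjusted p = 0.0326) and Zfand5 (-0.48 ± 0.081 kb, adjusted p = 0.00309). With shMbd6 9 of 9 rose, where 72.0% of all windows rose, by 0.316 kb at Adrm1, a ubiquitin receptor of the cap, to 0.89 kb at Ubqln4, a shuttling factor, and under scaling 4 of them kept the call and 2, Adrm1 and Rad23b, changed sign. In untransfected mESCs 0 of 18 were called, and 0 of 15 with siMbd6 or siNsun2 and 0 of 6 in each K-562 comparison.

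No BAP1 peak was listed in these windows. Neither BAP1 library of WT mESCs, with 2013 and 2233 peaks, had a peak in any of the 50 windows, while 52 of all 21911 windows held one in both libraries and 231 in at least 1.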

How the data were processed

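H2AK119ub and BAP1 were mapped by CUT&Tag in 41 libraries. Per the study's methods, the authors trimmed reads with Trimmomatic 0.39, aligned them with Bowtie2 2.4.1 to mm10 or hg38 together with the Drosophila spike-in genome, removed duplicates with Picard and called broad peaks with MACS2 in each library. The deposited peak lists hold positions, a score (10 times the −log10 q-value), a fold enrichment (the ratio of pileup to local background) and −log10 p- and q-values for each peak. Spike-in scaling acts on signal tracks and is not in the peak lists. The authors kept peaks found in at least 2 replicates for their own comparisons, whereas every deposited peak of each library was used here.

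Covered bases within 5 kb of each TSS were computed in Python 3.11.15 (pandas 2.3.3, numpy 2.4.6), and sequences were read with samtools 1.23.1. For 9 comparisons and 2 interaction terms, limma 3.58.1 (R 4.3.3) was fitted to covered kb, for every window with a peak in 3 or more of an experiment's libraries, with all its H2AK119ub groups in 1 model, Benjamini-Hochberg adjustment over all tested windows and two-sided p. An exact permutation test of 3 against 3 libraries cannot give less than 0.1. Overlap of groups was read for the proteasome genes only, so statements of no overlap have no share of all windows beside them. The method was tested on simulated data drawn around raised means, so no simulated group was left uncovered. That simulation does not cover windows where a whole group has no covered base. Alternatives were peaks of −log10 q of at least 5, a 2 kb window, no filter, scaling to equal covered length, a 2-group model, a replicate block, at least 200 covered bases, coverage in all 3 libraries, RefSeq starts and leaving out each library. Read depth is unknown, so no counting interval is given.

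Genes and lists were chosen with earlier results of these data known. Genes named for a comparison are all called ones up to 12, or the 12 called with the largest differences among those whose groups do not overlap, or with no call the 3 largest statistics in each direction. A fixed set was followed through the groups (Psma7, Psmb5, Psmb8, Psmb9, Psmb10, Psmc4, Psmd4, Psmd14, Psme1, Psme2, Psme4, Psmf1, Psmg1, Psmc3ip), and genes covered throughout or never were named. Psmd9, Psmd5 and Psmf1 start sites and the stretch beside Psmb8 were examined after their values were seen.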

Additional observations from a re-analysis of the deposited data

Results flagged for a closer look

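The Tet2 difference in covered length was lower in siNC than in untransfected mESCs at 25 genes by the interaction term (limma, adjusted p under 0.05), where 45.0% of all windows were. Several of these genes had no covered base in any siRNA-treated KO library, so their p can be too small. Values are in kb. In the core the term was -0.748 at Psma1, -0.443 at Psma2, -0.5 at Psma4, -0.538 at Psma5, -0.566 at Psmb1, -0.457 at Psmb2, -0.682 at Psmb3 and -0.573 at Psmb10. In the ATPase ring it was -0.327 at Psmc3, -0.426 at Psmc4, -0.445 at Psmc5 and -0.702 at Psmc6. In the rest of the cap it was -0.562 at Psmd1, -0.518 at Psmd3, -0.321 at Psmd4, -0.35 at Psmd8, -0.491 at Psmd12 and -0.713 at Psmd13. Among chaperones, activators and the inhibitor it was -0.401 at Psmd5, -0.579 at Psmd9, -0.432 at Psmg1, -0.623 at Psmg4, -1.315 at Psme2 and -0.437 at Psmf1, and at Psmc3ip, no subunit, -0.512.

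By the same kind of test, the Mbd6 knockdown difference was higher in HSPCs than in mESCs at 3 of 30 genes tested. It was higher by 0.32 kb at Psmc4, 0.397 kb at Psma4 and 0.398 kb at Psma2. Of all windows, 9.61% were called higher. Psma4 and Psmc4 each lost the call in 9 of the 12 fits that leave out a library. Psma2 and Psmc4 were covered in no library of siRNA-treated KO mESCs, so their p can be too small.

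The spike-in contigs, which the comparisons do not use, held a mean of 221.0 Drosophila peaks in HSPC KO shNC, against 53.0 in WT shNC and 90.3 in KO shMbd6. Its part in the HSPC results was not tested.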

How the results depend on the processing

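Values are numbers of the 50 proteasome genes unless given in kb, and causes were not tested except where fewer genes tested or fewer libraries are named. With peaks of -log10 q of at least 5, fewer genes were tested. In siNC mESCs 14 of 15 were then lower with loss of Tet2 (90.1% of all windows) and 1 (Psmb8) higher. In HSPCs 0 of 4 were lower with loss of Tet2 (20.5% of all windows) and 0 of 4 higher with shMbd6 (68.3%). The Tet2 interaction was lower for 16 (49.5% of all windows) and higher for 1 of 26, and the Mbd6 interaction higher for 0 of 17 (11.5%). With those peaks, covered genes numbered 17 in WT, 23 in KO and 18 in WT siNC mESCs, against 30.2%, 29.7% and 29.1% of all windows. There was 1 each in KO siNC, KO siMbd6 and KO siNsun2 mESCs (1.465%, 2.2% and 1.21%). HSPCs had 2 in WT and 4 in KO shMbd6 (3.96% and 8.33%). K-562 cells had 1 in WT siNC, 0 in KO siNC, 3 in KO siMBD6 and 3 in KO siNSUN2 (1.66%, 1.3%, 2.83% and 3.75%). Covered in all 3 libraries were 1 in KO siNC mESCs (5.31% of all windows) and 9 in HSPC KO shMbd6 (15.05%). In K-562 KO siNC, siMBD6 and siNSUN2 they were 1, 5 and 4 (2.23%, 4.41% and 5.45%). Within 2 kb of the TSS covered genes numbered 1, 2 and 1 in mESC KO siNC, siMbd6 and siNsun2 (10.33%, 14.07% and 9.27% of all windows). In HSPC KO shNC they numbered 0 (1.75%). At least 200 covered bases moved no such count by over 1.5 times.

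Scaled to equal covered length, 3 genes were lower (17.9% of all windows) and 1 higher with loss of Tet2 in HSPCs. With shMbd6 4 were then higher (27.9%) and 1 lower. In the Tet2 interaction 12 were lower (16.4%), and in the Mbd6 interaction 1 (Psmb8) was lower, without a share of all windows beside it. With no filter 3 were lower with loss of Tet2 in HSPCs, 5 higher with shMbd6 and 1 higher in the Mbd6 interaction. These fits also hold windows covered in no library, which have no residual spread. Their shares of all windows called are not given, so these counts cannot be set against all windows. With only the 2 groups in the model 1 gene was higher with siMBD6 and 1 with siNSUN2 in K-562 cells, among 6 tested. Of all windows 8.81% and 11.2% were then called higher.

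Leaving out 1 library at a time gave 8 to 24 lower genes in siNC mESCs, 3 to 5 lower in HSPCs with loss of Tet2, 6 to 8 higher with shMbd6, 20 to 28 lower in the Tet2 interaction and 1 to 7 higher in the Mbd6 interaction. In the main fits, with every library, 71.9%, 22.7%, 72.0%, 45.0% and 9.61% of all windows were called in those directions. Uncalled differences that changed sign when 1 library was left out were those of PSMG1 with siMBD6 (-0.157 to 0.084 kb) and siNSUN2 (-0.166 to 0.075 kb), of Psmb6 with siNsun2 (-0.149 to 0.056 kb) and of PSMC4 with loss of TET2 (-0.007 to 0.048 kb, and -0.241 kb with the stricter peaks). Psmd5 in untransfected mESCs changed sign to 0.106 kb with the stricter peaks, and under scaling Psmd3 (-0.026 kb) and Psme2 (-0.164 kb) did with shMbd6.

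The labels tie libraries of the same replicate number to no shared culture, animal or day. Deviations of same-number libraries correlated at 0.017 to 0.165 in untransfected mESCs (other pairs -0.101 to 0.084), 0.002 to 0.239 in siRNA-treated mESCs (-0.168 to 0.063), -0.037 to 0.013 in HSPCs (-0.03 to 0.041) and -0.024 to 0.054 in K-562 cells (-0.048 to 0.049), and replicate 1 had the fewest peaks in each of the 6 mESC groups. With the replicate number as a block, 24 genes were lower in siNC mESCs, 4 lower in HSPCs with loss of Tet2 (Psmd3 at an adjusted p of 0.0887), 8 higher with shMbd6, 24 lower in the Tet2 interaction (Psmd1 at 0.0539) and 3 higher in the Mbd6 interaction, and no other count changed. Without the block 71.9%, 22.7%, 72.0%, 45.0% and 9.61% of all windows were called in those directions. The shares with the block are not given. Read depth, which the peak lists do not give, limits every window listed at 0.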
